A study of Bos taurus with 10 samples.

Results

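Genes that mark T cells and natural killer (NK) cells were examined in bovine mammary tissue. A list of 47 genes was used, and its members were all probe sets of the Affymetrix Bovine Genome Array whose only annotated symbol is on the list. This gave 52 probe sets for 36 genes, out of 13292 probe sets that carry 1 symbol and stand for 9155 genes. For 11 listed genes no probe set is named in the annotation used here, and they were not analysed: the T cell receptor chains TRAC and TRBC1, the receptor CD226, the transcription factors GATA3, TBX21, EOMES and RUNX3, the granzymes GZMA, GZMK and GZMH, and the NK receptor KLRC1.

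Neighboring tissue (5 arrays, 1 per cow) came from udder glands without bacteria in cows that had received E. coli 1303 (500 CFU in 2 ml saline) in another gland, and was taken 24 h later. Control tissue (5 arrays, 1 per cow) was taken from healthy cows that received no inoculum. All were primiparous German Holstein Frisian cows in mid lactation, with estrus synchronised by cloprostenol. Per the methods of the study, neighboring 1, 2, 3 and 5 were pools of a saline-treated and an untreated gland and neighboring 4 was a single untreated gland, while controls 1, 2 and 4 were pools and controls 3 and 5 single glands, so saline in the udder and bacteria elsewhere in it cannot be told apart here. By quantitative PCR of selected genes, none on the list used here, the study found no significant difference between saline-treated and untreated neighboring glands. It also saw no significant rise of somatic cells in milk of saline-treated glands. Its clustering placed neighboring 4 with neighboring 1 to 3, and neighboring 5 with the controls.

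A T cell recognises antigen through a receptor whose signal is carried by the CD3 chains and CD247. The kinase LCK, held at the coreceptors CD4 and CD8, phosphorylates these chains, ZAP70 docks on them, and the adaptors LAT and LCP2 pass the signal on, while CD28 and ICOS add costimulation and CTLA4 and PDCD1 restrain it. Cytotoxic T cells and NK cells kill with granules that hold perforin and granzymes. In the mammary gland T cells lie within and beneath the epithelium of the ducts and alveoli.

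Values are log2 signals per probe set, made by RMA, and the array number limits their precision. The median signal was 6.25 to 6.27 per array, and any pair of arrays correlated at 0.971 to 0.992 across probe sets, which are not independent replicates. The 12 measured markers of secretory epithelium had a mean level of 12.7 to 12.9 on neighboring 1 to 4, 12.6 on neighboring 5, and 12.4 to 12.6 on the control arrays of the fit. Between the arrays of the fit the caseins and whey proteins differed by −0.09 to 0.09. KRT18, KRT19, EPCAM and PRLR differed by 0.72 to 1.10. Following the study, neighboring 5, which it set aside as a biological outlier, and control 3, set aside as a technical outlier, were left out of the 8-array fit. The profile of neighboring 5 was nearer to those of the controls by the clustering of the study, so each member call is set beside its result on the full set of 10 arrays. Spiked bacterial transcripts, the hybridization controls of the array, also moved with the groups, at 10.20 to 10.43 on neighboring 1 to 4 (10.65 on neighboring 5) and 10.42 to 10.84 on the controls of the fit (10.64 on control 3).

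On the 8 arrays T cell receptor, coreceptor, surface receptor and signalling genes were lower in neighboring than in control tissue by 1.4- to 1.8-fold where they passed the test, and none was higher. Of 22 members with a mean above 5.71, the intensity under which the lowest 40% of probe sets lie, 8 were lower at an adjusted p under 0.05 (CD3D, CD3E, CD8B, CD2, CD96, ZAP70, LCK and LCP2), against 12% of the 14409 probe sets tested. No member was higher (0 of 22, and 0 at an unadjusted p under 0.05), against 17.7% of all probe sets. The difference was negative for 21 of the 22, the exception being FYN, and its median was −0.47 against 0.03 over all probe sets. In bulk tissue fewer cells of a type and less RNA per cell cannot be told apart.

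These calls rested on which arrays entered. With neighboring 5 put back 0 of 22 members were lower (3.1% of all probe sets), and on all 10 arrays only ZAP70 was (adjusted p = 0.0395), against 5.37% of all probe sets, with a median difference of −0.31. At an unadjusted p under 0.05, 8 of 22 members were lower on all 10 arrays, against 14.2% of all probe sets. With the hybridization controls as a covariate 0 of 22 passed (0.687% of all probe sets, smallest adjusted p = 0.227), with a median of −0.36, and 3 members were lower at an unadjusted p under 0.05, against 8.13% of all probe sets. None reached the stricter threshold of the study, over 2-fold at an adjusted p below 0.01 (0 of 22, against 1.05% of all probe sets lower). The part of the hybridization signal in the member values was not tested beyond this covariate.

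**Figure D1:**
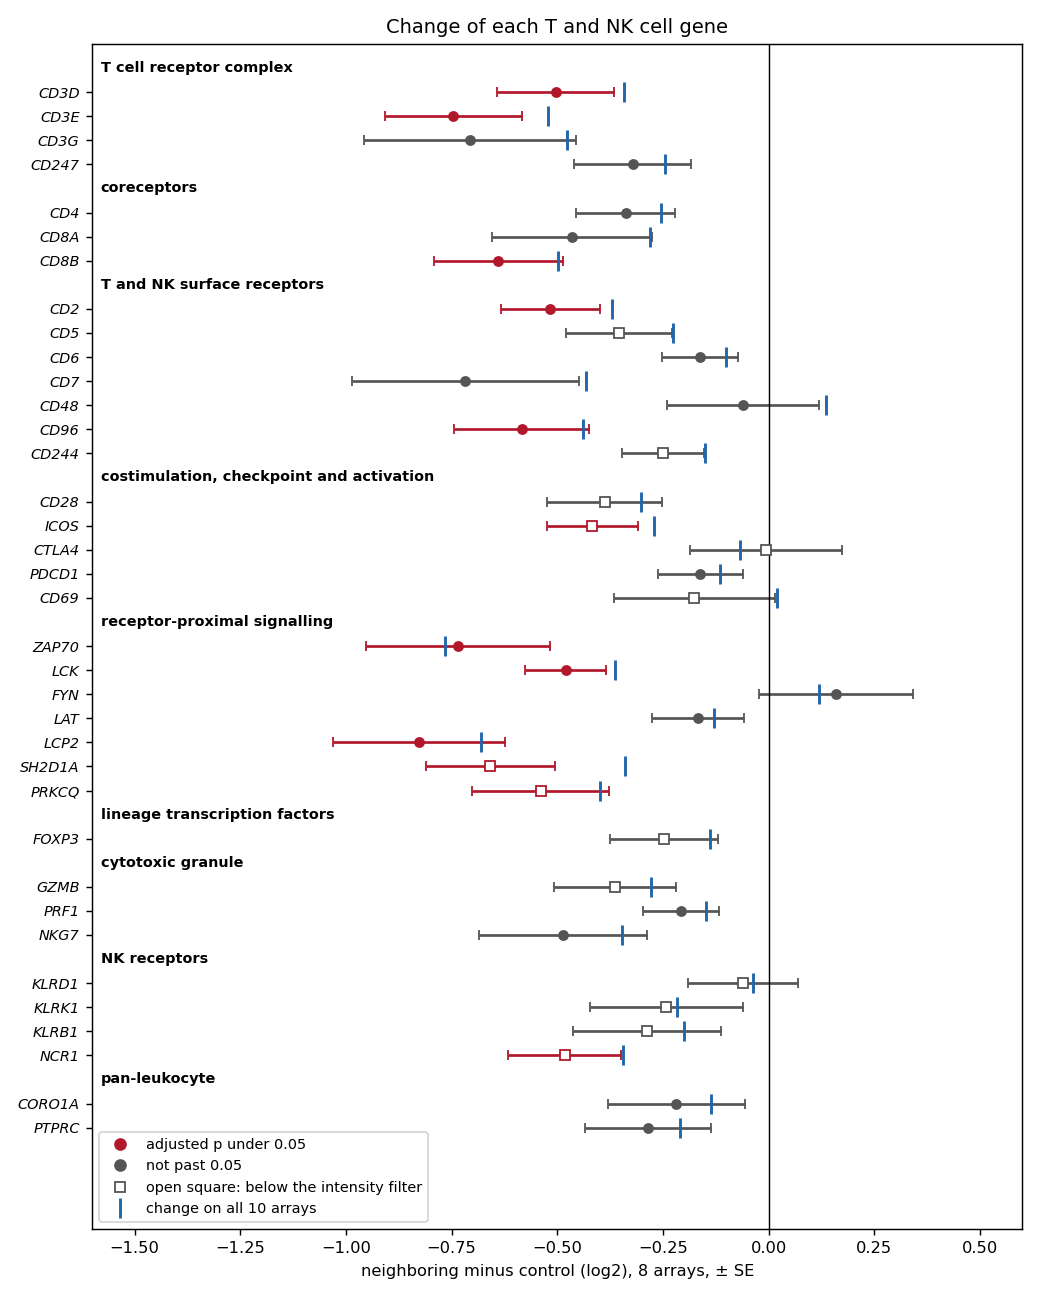
Difference of each of the 36 genes, neighboring minus control on the log2 scale, with its standard error on the 8 arrays (filled circles above the intensity filter, open squares below it, red at an adjusted p under 0.05) and the difference on all 10 arrays as a blue bar. All genes but FYN (0.16) lie left of 0 on the 8 arrays, and for most of them the value on all 10 arrays lies nearer to 0, ZAP70 being an exception at −0.73 on 8 arrays and −0.76 on 10.

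All 4 measured members of the T cell receptor complex had lower means in neighboring tissue (median −0.61, or −0.41 on all 10 arrays), and 2 passed the test. CD3E, a signalling chain of the receptor, read 6.32, 6.50, 6.74 and 7.13 on neighboring 1 to 4 and 7.62 on neighboring 5, against 7.48, 7.41, 7.55 and 7.24 on controls 1, 2, 4 and 5 and 7.25 on control 3. Every neighboring array of the fit lay below every control, while neighboring 5 was the highest of the 10. The difference was −0.75 ± 0.16 (SE; 1.68-fold lower, adjusted p = 0.00751), and −0.52 ± 0.21 on all 10 arrays (adjusted p = 0.109). CD3D, the chain that pairs with CD3E, read 5.82, 6.00, 6.04 and 6.43 on neighboring 1 to 4 and 6.72 on neighboring 5, against 6.71, 6.56, 6.65 and 6.38 on the controls of the fit and 6.41 on control 3. Here neighboring 4 overlapped the lowest control, and neighboring 5 again exceeded all controls. CD3D fell by 0.50 ± 0.14 (SE, adjusted p = 0.0206) on 8 arrays and differed by −0.34 on 10 (adjusted p = 0.159), and its call was lost without control 1, control 4 or neighboring 3 (adjusted p up to 0.0554).

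The remaining chains did not pass. CD3G, which forms the other heterodimer with CD3E, read 5.52, 6.42, 6.33 and 6.82 on neighboring 1 to 4 and 7.03 on neighboring 5, against 7.16, 7.21, 7.02 and 6.52 on the controls of the fit and 6.60 on control 3. Its difference was nearly as large as that of CD3E but its spread was wider (−0.71 ± 0.25, SE, adjusted p = 0.0556; −0.48 on all 10 arrays, adjusted p = 0.209), with neighboring 1 far down and control 5 within the neighboring range, and it passed without neighboring 4 or without control 5. CD247, the zeta chain with most of the signalling motifs of the complex, read 6.91, 7.06, 7.25 and 7.54 on neighboring 1 to 4 and 7.59 on neighboring 5, against 7.46, 7.69, 7.39 and 7.51 on the controls of the fit and 7.53 on control 3. The array neighboring 4 was within the control range and the difference was −0.32 ± 0.14 (SE, adjusted p = 0.102; −0.25 on all 10 arrays, adjusted p = 0.222). In each chain neighboring 1 was the lowest array, and the per-array median over the 4 genes, relative to the mean of the controls of the fit, was −0.93, −0.57, −0.59 and −0.15 on neighboring 1 to 4 and 0.11 on neighboring 5. The reference annotation (RefSeq, assembly ARS-UCD2.0) places CD3E, CD3D and CD3G next to each other, and CD8B next to CD8A.

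**Figure D2:**
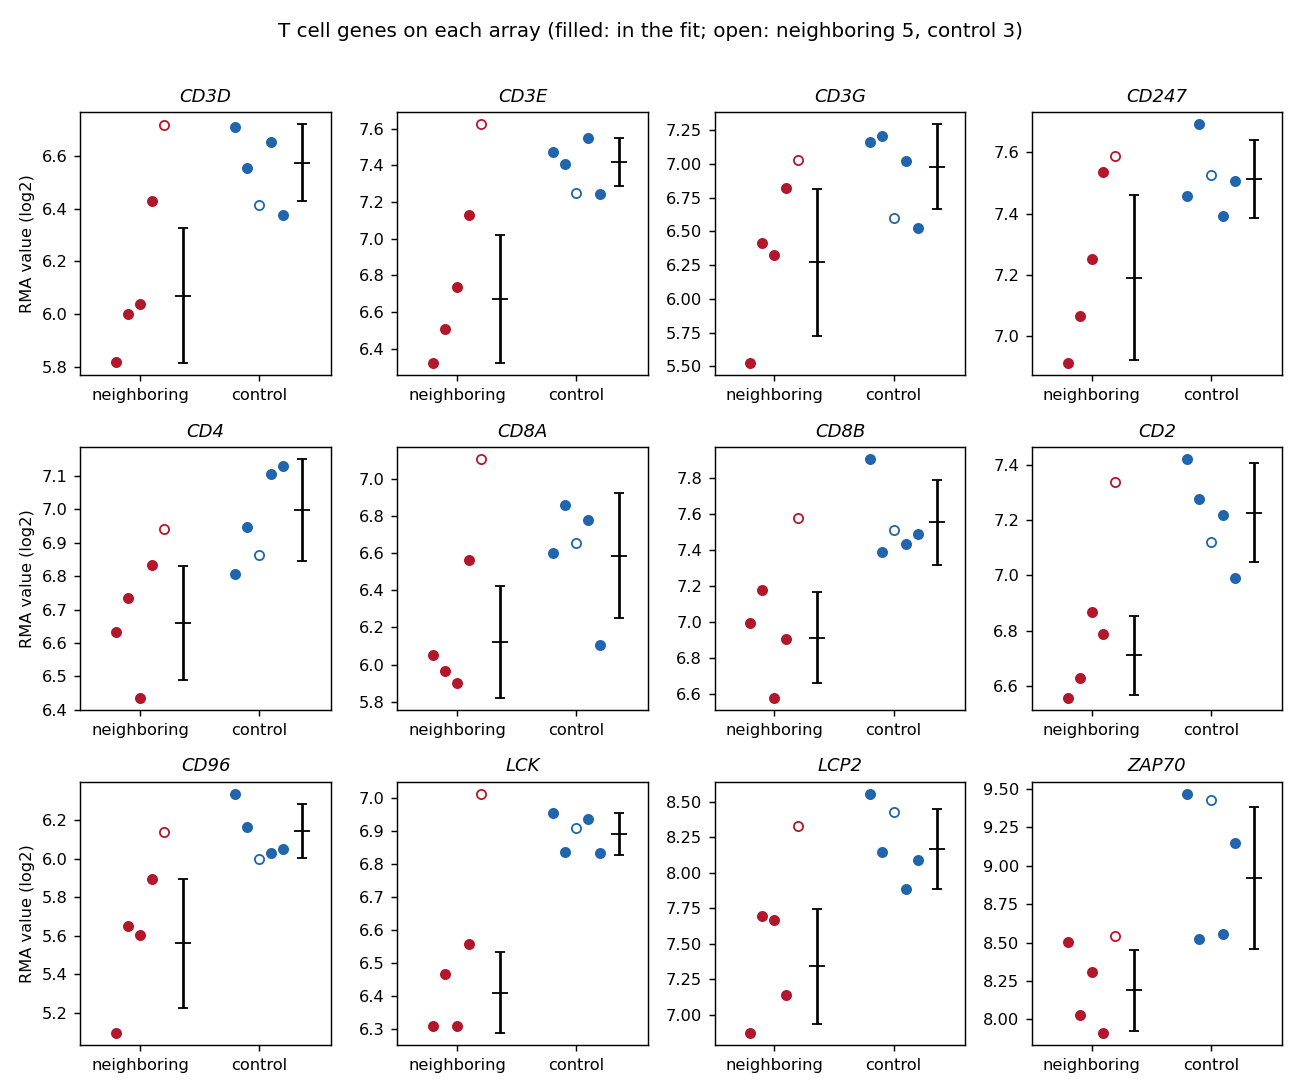
RMA values (log2, a separate axis range for each gene) of 12 T cell genes on each array in order of replicate number, with neighboring left and control right (filled points entered the fit, neighboring 5 and control 3 are drawn open, bars give mean ± SD of the 4 filled points). The open neighboring point lies above the filled ones in all 12 genes, and for ZAP70, at 8.54, it stays in the low part of the control range.

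Coreceptor transcripts were lower by a median of −0.46 (−0.28 on all 10 arrays), and 1 of 3 passed. CD8B, the beta chain found on cytotoxic T cells, read 7.00, 7.18, 6.58 and 6.91 on neighboring 1 to 4 and 7.58 on neighboring 5, against 7.91, 7.39, 7.44 and 7.49 on the controls of the fit and 7.52 on control 3. The groups of the fit did not overlap, and the difference was −0.64 ± 0.15 (SE; 1.56-fold lower, adjusted p = 0.0118), against −0.50 ± 0.17 on all 10 arrays (adjusted p = 0.0701). CD8A, whose chain also forms homodimers on some NK and gamma-delta T cells, read 6.05, 5.97, 5.90 and 6.56 on neighboring 1 to 4 and 7.10 on neighboring 5, against 6.60, 6.86, 6.78 and 6.11 on the controls of the fit and 6.65 on control 3. Control 5 lay within the neighboring range, neighboring 5 was the highest array, and the difference of −0.46 ± 0.19 (SE) did not pass (adjusted p = 0.0864; −0.28 on all 10 arrays, adjusted p = 0.396). CD4, the coreceptor of helper T cells, read 6.63, 6.74, 6.43 and 6.83 on neighboring 1 to 4 and 6.94 on neighboring 5, against 6.81, 6.95, 7.11 and 7.13 on the controls of the fit and 6.86 on control 3. The groups met only at neighboring 4 and control 1, and CD4 just missed the threshold (−0.34 ± 0.12, SE, adjusted p = 0.0518; −0.26 on all 10 arrays, adjusted p = 0.137).

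Among surface receptors shared by T and NK cells, 2 of 5 above the filter were lower (median −0.52, or −0.37 on all 10 arrays). CD2, an adhesion receptor of both cell types, read 6.56, 6.63, 6.87 and 6.79 on neighboring 1 to 4 and 7.34 on neighboring 5, against 7.42, 7.28, 7.22 and 6.99 on the controls of the fit and 7.12 on control 3. The groups of the fit did not overlap, and the fall of 0.52 ± 0.12 (SE, 1.43-fold lower, adjusted p = 0.00956) was matched by its next probe set (−0.51 ± 0.12, adjusted p = 0.0122). On all 10 arrays CD2 differed by −0.37 (adjusted p = 0.102). The dimmest probe set of CD2, below the filter, differed by −0.06. CD96, a receptor for nectin-family ligands, read 5.09, 5.65, 5.60 and 5.89 on neighboring 1 to 4 and 6.14 on neighboring 5, against 6.34, 6.16, 6.03 and 6.05 on the controls of the fit and 6.00 on control 3. It did not overlap on the 8 arrays (−0.58 ± 0.16, SE, adjusted p = 0.0204) and lost its call without control 1 (adjusted p = 0.0554) and on all 10 arrays (−0.44, adjusted p = 0.0933).

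CD7, an immunoglobulin-family receptor of T and NK cells, had the widest neighboring range of the group, with 4.85, 5.34, 5.99 and 6.35 on neighboring 1 to 4 and 6.61 on neighboring 5, against 6.23 to 6.41 on the controls of the fit and 5.90 on control 3. Its difference was −0.72 ± 0.27 (SE, adjusted p = 0.0666; −0.43 on all 10 arrays, adjusted p = 0.305). CD6, a scavenger-receptor protein that tunes T cell signalling, differed by −0.16 (adjusted p = 0.193). A less bright probe set of CD6, below the filter, read 4.53, 4.81, 4.50 and 4.84 on neighboring 1 to 4 and 4.61 on neighboring 5, against 5.04, 4.99, 4.88 and 5.05 on the controls of the fit and 5.24 on control 3. All 5 neighboring arrays lay below all 5 controls, and this probe set passed on all 10 arrays without a filter (−0.38 ± 0.10, SE, adjusted p = 0.0443, where 3.04% of 24016 probe sets were lower) but not on 8 (adjusted p = 0.0602). CD48, a lipid-anchored protein found on most leukocytes, differed by −0.06 ± 0.18 (SE), and its sign turned on all 10 arrays (0.13).

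Receptor-proximal signalling held the largest share of calls, with 3 of 5 members above the filter lower (median −0.48, or −0.36 on all 10 arrays). The adaptor LCP2 (SLP-76), which is also made by myeloid cells and platelets, read 6.87, 7.69, 7.67 and 7.13 on neighboring 1 to 4 and 8.33 on neighboring 5, against 8.55, 8.15, 7.88 and 8.09 on the controls of the fit and 8.43 on control 3. The groups of the fit did not overlap, and LCP2 had the largest difference of all members (−0.83 ± 0.20, SE; 1.77-fold lower, adjusted p = 0.0133; −0.68 on all 10 arrays, adjusted p = 0.0775). LCK, the Src-family kinase bound to the coreceptors, read 6.31, 6.47, 6.31 and 6.56 on neighboring 1 to 4 and 7.01 on neighboring 5, against 6.96, 6.84, 6.94 and 6.83 on the controls of the fit and 6.91 on control 3. Its arrays were tight within each group and it had the smallest adjusted p of all members (−0.48 ± 0.10, SE, adjusted p = 0.00505), while neighboring 5 was the highest array and the call was lost on 10 (adjusted p = 0.077). Less bright probe sets of LCK, below the filter, differed by −0.22 and −0.19.

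ZAP70, the kinase recruited to phosphorylated CD3 and CD247, was the only member called lower on all 10 arrays as well. It read 8.50, 8.03, 8.31 and 7.91 on neighboring 1 to 4 and 8.54 on neighboring 5, against 9.47, 8.52, 8.55 and 9.15 on the controls of the fit and 9.43 on control 3. The controls fell into a high set (1, 3 and 5) and a low set (2 and 4) that lay just above neighboring 1 to 4 and level with neighboring 5. The difference was −0.73 ± 0.22 (SE; 1.66-fold lower, adjusted p = 0.0284) on 8 arrays and −0.76 ± 0.21 on 10 (adjusted p = 0.0395), and the 8-array call was lost without control 1, control 5, neighboring 2, neighboring 3 or neighboring 4 (adjusted p up to 0.0744). FYN, a related kinase made in many cell types, differed by 0.16 ± 0.18 (SE), and the membrane adaptor LAT by −0.17 ± 0.11 (adjusted p = 0.259).

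Lower signals were counted without the filter, where 9.21% of all 24016 probe sets were lower on 8 arrays. Of all 36 genes 12 were lower and 0 higher (0 higher also at an unadjusted p under 0.05), and 35 had a negative difference (median −0.36). Of the 24016 probe sets 2673 were higher, 56.0% had a negative difference, and the median was −0.04. The 14 members under the filter contributed SH2D1A, PRKCQ, ICOS and NCR1 to the 12. In SH2D1A, the adaptor of SLAM-family receptors, control 5 overlapped the neighboring arrays. It read 4.09, 4.19, 4.54 and 4.36 on neighboring 1 to 4 and 5.18 on neighboring 5, against 5.08, 5.10, 5.11 and 4.52 on the controls of the fit and 4.25 on control 3. It fell by 0.66 ± 0.15 (SE, adjusted p = 0.0135) and kept its call whichever array of the fit was left out, but both arrays outside the fit ran the other way (−0.34 on all 10 arrays, adjusted p = 0.334). PRKCQ, a protein kinase C of the T cell synapse, read 5.30, 5.38, 5.19 and 5.53 on neighboring 1 to 4 and 5.89 on neighboring 5, against 6.03, 6.29, 5.77 and 5.47 on the controls of the fit and 5.73 on control 3. Control 5 overlapped the neighboring arrays, and its call (−0.54 ± 0.16, SE, adjusted p = 0.038) was lost in 6 of 8 fits with a single array omitted (adjusted p up to 0.102) and on all 10 arrays (−0.40, adjusted p = 0.14).

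Costimulation and checkpoint genes were mostly dim: of 5 only PDCD1, the inhibitory receptor PD-1, lay above the filter (−0.16 ± 0.10, SE, adjusted p = 0.243). Without the filter 1 of 5 was lower, and the median was −0.18 (−0.11 on all 10 arrays). ICOS, the inducible costimulator of activated T cells, read 5.51, 5.50, 5.18 and 5.42 on neighboring 1 to 4 and 5.92 on neighboring 5, against 5.73, 5.78, 5.95 and 5.82 on the controls of the fit and 5.60 on control 3. The groups of the fit did not overlap, and ICOS fell by 0.42 ± 0.11 (SE, adjusted p = 0.0203), a call that was lost without control 4 or neighboring 3 (adjusted p up to 0.0574) and on all 10 arrays (adjusted p = 0.187). CD28, the constitutive costimulatory receptor, had a difference of similar size at a very low signal (3.02 ± 0.14 on the neighboring and 3.41 ± 0.26 on the control arrays of the fit, SD, n = 4 each) that did not pass (−0.39, adjusted p = 0.0667). CTLA4, the inhibitory receptor that shares the ligands of CD28, differed by −0.01 ± 0.18 (SE), and CD69, an early activation marker, by −0.18 ± 0.19, with the sign turned on all 10 arrays (0.018).

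None of the 3 cytotoxic granule members with a probe set passed. Granule genes of another list, among them GNLY, are given further below. PRF1, the pore-forming perforin, read 5.78, 5.86, 5.89 and 5.89 on neighboring 1 to 4 and 6.23 on neighboring 5, against 6.18, 6.03, 5.95 and 6.09 on the controls of the fit and 6.14 on control 3. The groups of the fit did not overlap but lay close together, and the difference was small (−0.21 ± 0.09, SE, adjusted p = 0.107). GZMB, a granule protease that triggers cell death in targets, read 4.39, 4.56, 4.76 and 4.82 on neighboring 1 to 4 and 4.97 on neighboring 5, against 5.35, 4.82, 4.79 and 5.02 on the controls of the fit and 4.91 on control 3. It lay below the filter and its groups overlapped at neighboring 4 and control 4 (−0.36 ± 0.14, SE, adjusted p = 0.0975). For NKG7, a granule membrane protein, the brighter probe set differed by −0.49 ± 0.20 (SE, adjusted p = 0.0881) and the other, also above the filter, by 0.11 ± 0.12, so that its direction depended on the probe set. The median of the 3 genes without a filter was −0.36 (−0.28 on all 10 arrays). At an unadjusted p under 0.05 all 3 were lower on the 8 arrays, against 18.2% of all probe sets, and 0 on all 10 arrays.

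NK receptor probe sets all lay below the filter, and 1 of 4 was lower without it (median −0.26, or −0.21 on all 10 arrays). NCR1 (NKp46), a receptor that marks NK cells in cattle, read 4.82, 5.13, 5.12 and 5.03 on neighboring 1 to 4 and 5.50 on neighboring 5, against 5.40, 5.61, 5.23 and 5.79 on the controls of the fit and 5.29 on control 3. The groups of the fit did not overlap (−0.48 ± 0.13, SE, adjusted p = 0.0278), the call was lost in 4 of 8 fits with a single array omitted (adjusted p up to 0.0687), and on all 10 arrays the adjusted p was 0.134. KLRD1 (CD94), the partner chain of NKG2 receptors, read 5.18, 5.11, 5.27 and 5.67 on neighboring 1 to 4 and 5.39 on neighboring 5, against 5.22, 5.49, 5.37 and 5.38 on the controls of the fit and 5.34 on control 3. Here the groups were intermixed, with neighboring 4 the highest array (−0.06 ± 0.13, SE). The activating receptor KLRK1 (NKG2D) differed by −0.24 ± 0.18 and KLRB1 (CD161) by −0.29 ± 0.18 (adjusted p = 0.362 and 0.262).

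Other members below the filter did not pass either. CD5, a negative regulator of T cell receptor signalling, differed by −0.35 ± 0.13 (SE, adjusted p = 0.0684), and CD244, the receptor of CD48 on NK and some T cells, by −0.25 ± 0.10 (adjusted p = 0.0899) with no overlap on the 8 arrays. FOXP3, the transcription factor of regulatory T cells, differed by −0.25 ± 0.13 (adjusted p = 0.191). The 16 less bright probe sets of genes with several gave 12 negative and 4 positive differences, and 1 of them, that of CD2, passed.

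Pan-leukocyte members had smaller differences than most T cell receptor genes, although this contrast between gene groups was not tested, nor was any other. PTPRC (CD45), the phosphatase that activates LCK and is found on all leukocytes, read 7.87, 7.91, 7.70 and 7.95 on neighboring 1 to 4 and 8.28 on neighboring 5, against 8.32, 8.13, 8.42 and 7.70 on the controls of the fit and 8.18 on control 3. Control 5 was as low as the lowest neighboring array, and the difference did not pass (−0.29 ± 0.15, SE, adjusted p = 0.171, or 0.0248 without control 5). CORO1A, an actin regulator of leukocytes, showed the same low control 5 (7.15, against 7.72 to 7.82 on the other controls) and differed by −0.22 ± 0.16.

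**Figure D3:**
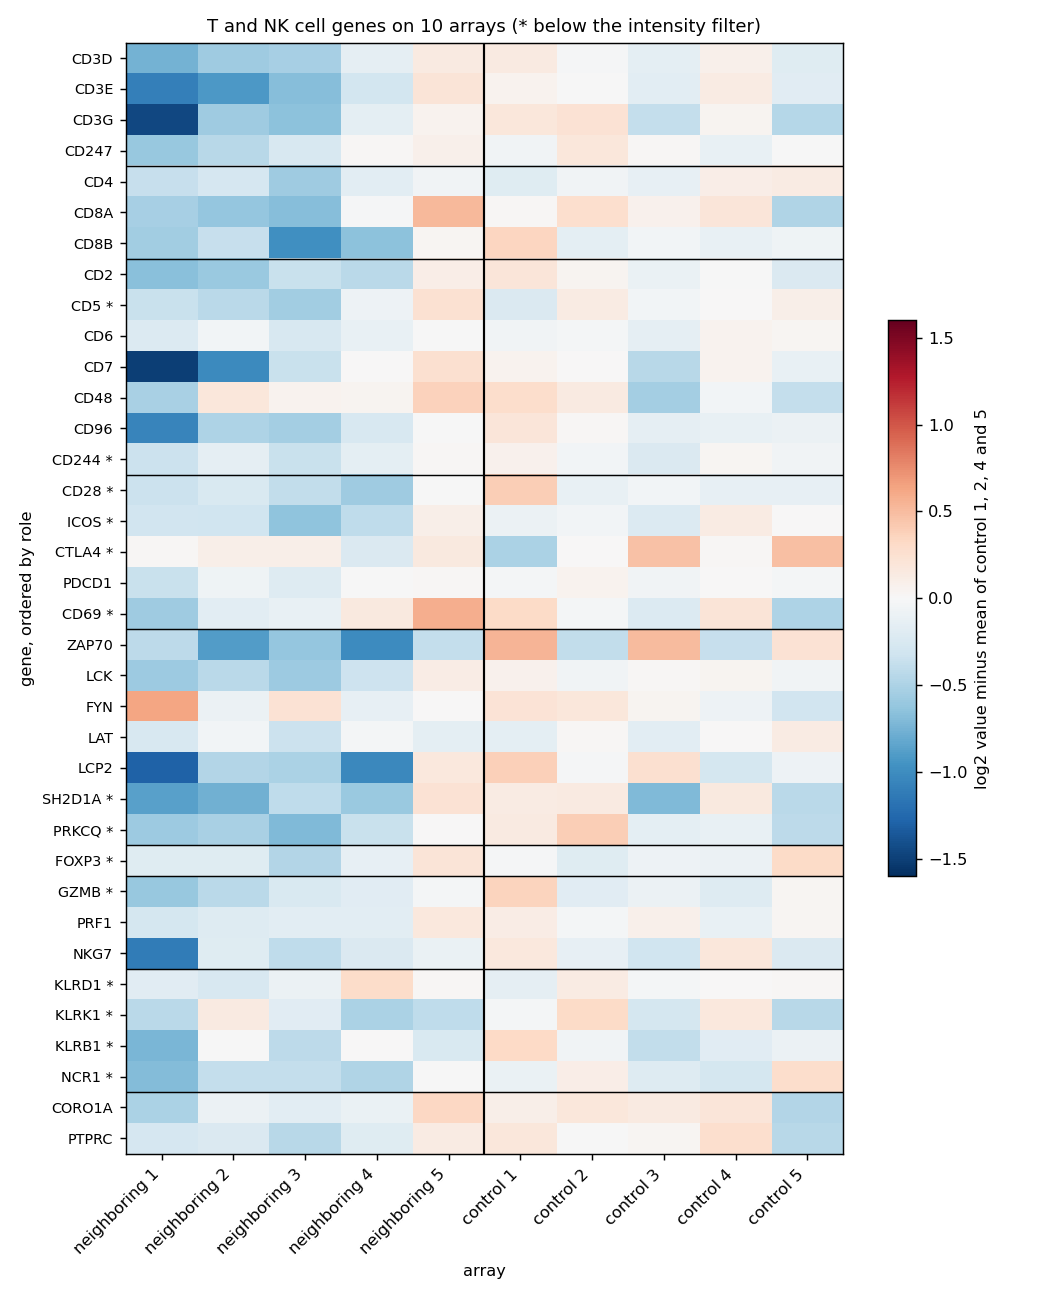
Log2 value of each of the 36 genes on each of the 10 arrays minus the mean of controls 1, 2, 4 and 5, with genes ordered by role (rows, * marks genes below the intensity filter) and neighboring arrays left of the controls. Neighboring 1 is the lowest array in 13 of the 22 genes above the filter, and neighboring 5 is the highest in 8.

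The arrays ordered the members in a repeated way. Neighboring 1 was the lowest of the 10 arrays in 13 of the 22 members above the filter, against 12.2% of all probe sets tested, and neighboring 3 in 6 (9.74%). Neighboring 5 was the highest in 8 of the 22, against 4.80% of all probe sets, and lay above all of neighboring 1 to 4 in 20 of the 22, against 27.2%. It exceeded all 5 controls in the same 8 members (CD3D, CD3E, CD8A, CD7, CD48, LCK, PRF1 and CORO1A) and the mean of the controls of the fit in 16. Over the 22 members the per-array median relative to that mean was −0.55, −0.40, −0.43 and −0.16 on neighboring 1 to 4 and 0.09 on neighboring 5, against −0.11 to 0.13 on the controls of the fit and −0.08 on control 3. Neighboring 4, the single untreated gland, was thus the array of the fit nearest to the controls, and the part of its sampling in this was not tested. On the 8 arrays every neighboring value lay below every control value in 8 of the 22 (CD3E, CD8B, CD2, CD96, ZAP70, LCK, LCP2 and PRF1), against 13.3% of all probe sets, and in 4 of the 14 below the filter (CD244, CD28, ICOS and NCR1), against 11.8% of the probe sets below it.

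**Figure D4:**
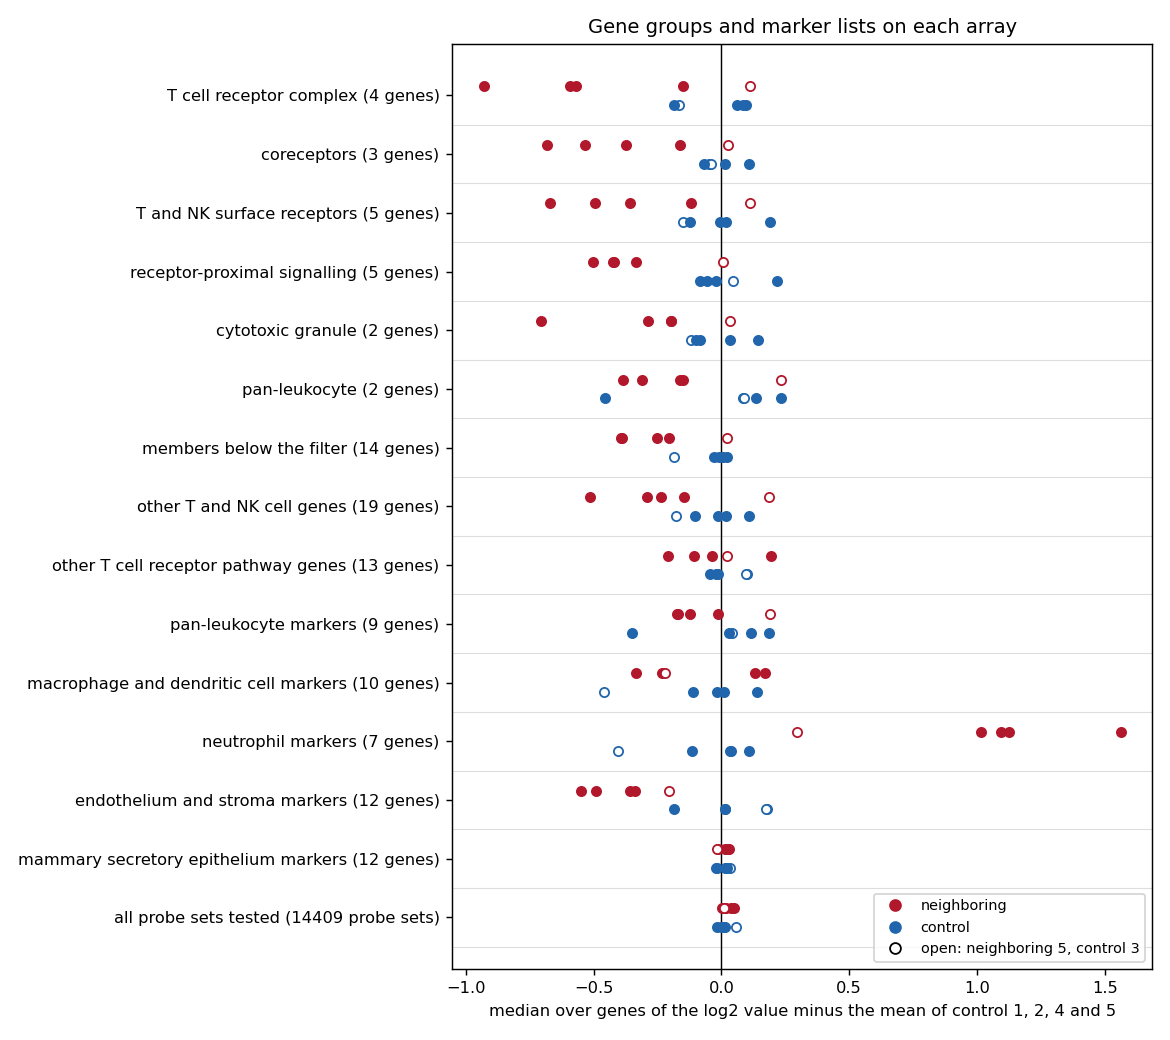
Median over the genes of each group of the log2 value minus the mean of controls 1, 2, 4 and 5, per array, for member groups and marker lists above the intensity filter, with neighboring above control in each row and open points for neighboring 5 and control 3. The T cell receptor complex lies at −0.93 to −0.15 on neighboring 1 to 4 and 0.11 on neighboring 5, while the neutrophil markers lie at 1.01 to 1.56 and 0.29.

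Further genes of the pathway and of these cells were counted from lists, beside the 12% of all probe sets that were lower and 17.7% that were higher. Of 33 other T cell receptor pathway genes 13 were measured above the filter, 2 were lower (TXK, a T cell kinase, −0.43, and CSK, the kinase that inhibits LCK, −0.30), 2 were higher (BCL10, an adaptor of NF-kappaB activation, 0.43, and GRB2, a widely made adaptor, 0.28), and the median was −0.04. On all 10 arrays TXK alone passed (adjusted p = 0.0424), with adjusted p of 0.0507 for GRB2, 0.0754 for CSK and 0.105 for BCL10. Of 54 other T and NK cell genes 19 were measured, of which 5 were lower and 2 higher (median −0.26), against 1 lower and 1 higher on all 10 arrays (median −0.18). Of all 14409 probe sets 774 were lower and 1032 higher on the 10 arrays. With the hybridization controls as a covariate none of either list passed (limma, 0 of 13 and 0 of 19), and at an unadjusted p under 0.05 the pathway list had 1 lower and the other list 2 lower and 1 higher.

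CCL5, a chemokine of activated T and NK cells, fell by 0.77 ± 0.17 (SE, adjusted p = 0.00891) on the 8 arrays, but differed by only −0.33 ± 0.30 on all 10 (adjusted p = 0.445). IKZF3, a lymphocyte transcription factor, fell by 0.67 ± 0.16 (adjusted p = 0.0127) and was the gene still called lower on all 10 arrays (−0.59, adjusted p = 0.0331). The others lower on the 8 arrays were CD52, CXCR6 and SRGN, which were added after their values were seen. The 2 that were higher encode proteins of cytotoxic granules, GNLY (0.91 ± 0.20, adjusted p = 0.00849; 1.04 on all 10 arrays, adjusted p = 0.0232), which the study picked on these samples, and CTSC (0.69; 0.49 on all 10 arrays, adjusted p = 0.132), a protease that activates granzymes and neutrophil proteases and is not particular to lymphocytes. CCL5 read 8.15 on neighboring 5, above the controls of the fit (7.40 to 8.10), whereas GNLY read 6.42 there, within the range of neighboring 1 to 4 (6.23 to 7.05). On control 3 CCL5 read 6.73 and GNLY 4.85, each below all controls of the fit.

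Markers of other cells moved as well, and their part in the member values was not tested. Of 7 neutrophil markers 4 were higher (CHI3L1, S100A8, S100A12 and NCF4), while S100A9 (0.17), LTF (0.14) and NCF1 (−0.41) did not pass. The study had already reported S100A8 and S100A12 as raised in neighboring glands. The mean level of the 7 was 8.17 to 8.54 on neighboring 1 to 4, 8.24 on neighboring 5, and 7.17 to 7.46 on the controls of the fit. Of 12 endothelial and stromal markers 5 were lower (LUM, COL3A1, MYH11, ACTA2 and COL1A1) and 1 higher (PDGFRA). The endothelial markers PECAM1 (0.49), CDH5 (−0.16) and TEK (−0.42) did not pass. The mean level of the 12 was 8.70 to 9.13 on neighboring 1 to 4, 9.09 on neighboring 5, and 9.25 to 9.62 on the controls. Of 10 macrophage and dendritic cell markers 3 were lower (MSR1, CD14 and AIF1), but only 5 had a negative difference, and the median was 0.015. C1QA (0.14), C1QB (0.34), C1QC (0.19), FCGR1A (0.13) and CD68 (0.10) had positive differences that did not pass. The mean level of the 10 was 7.53 to 8.13 on neighboring 1 to 4, 7.87 on neighboring 5, and 8.07 to 8.18 on the controls. Of 9 other pan-leukocyte markers 1 was lower (CD52; 7.43 to 7.69 on neighboring 1 to 4, 7.84 on neighboring 5, 7.40 to 7.83 on the controls), of 12 epithelial markers 2 were higher (KRT19 and EPCAM), and the 2 measured B and plasma cell markers, JCHAIN (−0.37) and MZB1 (−0.30), did not pass. On all 10 arrays the counts were 4 higher for neutrophils, 5 lower and 1 higher for endothelium and stroma, 2 lower for macrophages and dendritic cells, 0 lower for the other pan-leukocyte markers (0 also at an unadjusted p under 0.05) and 1 higher for epithelium. Of all 14409 probe sets 1032 were higher and 774 lower on the 10 arrays. With the hybridization controls as a covariate 2 neutrophil markers were higher, 2 endothelial and stromal markers were lower, and 0 passed in the other lists. Of all 14409 probe sets 152 were then higher and 99 lower.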

How the data were processed

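Biotin-labelled RNA of mammary tissue was measured on the Affymetrix Bovine Genome Array. The values deposited by the authors are log2 signals of each probe set from RMA (background correction, quantile normalization, summary over probes). The submitters' processing notes name no version. Quantile normalization hides a shift common to most transcripts. Arrays were grouped by their titles, because the source label of the controls repeats the text of the neighboring group. Array control probe sets (112 of 24128) were left out. Probe sets were named by the platform annotation. Present calls, the filter of the study, require single-probe data and were not used here. Instead the lowest 40% of probe sets by mean over 10 arrays (up to 5.71) were left out, which kept 14409. Neighboring and control arrays, 4 against 4, were compared with limma 3.58.1 in R 4.3.3 (lmFit, eBayes, Benjamini-Hochberg over all kept probe sets, adjusted p under 0.05). A gene was represented by its probe set with the highest mean, and members under the filter were taken from the fit without a filter. Differences are neighboring minus control. Cows are separate animals. The members and lists were chosen with earlier results of these data known. Values on every array are given for members that passed and for cell-defining members, and list genes are the up to 4 with the largest changes that passed. Alternatives covered arrays, array weights, filter, scaling, variance model, thresholds, probe set, the hybridization controls, leaving out each array and the replicate block. The fit was tested on simulated data.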

Additional observations from a re-analysis of the deposited data

Results flagged for a closer look

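Of 72 groups of 5 arrays looked at, 1 for each of the 36 genes and each condition, 4 held an array far from the other 4, measured by its gap to the nearest of them over the range of the group. Chance alone flags about 1 group in 20. CD8B read 7.91 on control 1, against 7.39 to 7.52 on the other controls, and CD28, below the intensity filter, read 3.80 on control 1, against 3.27 to 3.37. PRF1 read 6.23 on neighboring 5, against 5.78 to 5.89 on the other neighboring arrays. CORO1A read 7.15 on control 5, against 7.72 to 7.82 on the other controls.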

How the results depend on the processing

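The number of members lower was 8 on the 8 arrays, 1 on all 10 arrays (1 also without a filter, which was tried after seeing the data), 0 with neighboring 5 put back, 0 with the hybridization controls as a covariate, 5 with the lowest 60% of probe sets left out, 13 at an adjusted p under 0.1, 0 at the threshold of the study, and 6 to 12 when 1 array was left out. Array weights, control 3 put back, another scaling or variance model, another filter and the second probe set gave 8 to 12. Of all 14409 probe sets tested, 1201 to 1706 were lower when 1 array was left out. With array weights, control 3 put back or another scaling or variance model, 1726 to 1988 were. With the lowest 60% left out, 1241 of 9606 were. CD3D, CD96 and LCK, at percentiles 51.9, 43.4 and 57.7 of mean signal, fell under that filter and were not tested there. No share over all probe sets is given for the 13 at an adjusted p under 0.1. CD3E, CD8B, CD2, LCK, LCP2 and SH2D1A kept their call whichever array of the fit was left out. Replicate numbers are shared by different cows, and arrays of 1 number did not deviate together (correlations of −0.19 to 0.17), so no pairing was assumed. With the replicate block 3 members were lower on 8 arrays and 1 on 10, against 631 and 447 of all 14409 probe sets. The median difference of coreceptors was −0.28 on all 10 arrays (also with the block and with neighboring 5 put back). With the lowest 60% left out only CD8B remained, at −0.64. The median of surface receptors was −0.25 with the hybridization covariate and −0.29 with the lowest 60% left out, where only CD2 and CD48 remained. That of proximal signalling was −0.36 on all 10 arrays, with the block on 10 and with neighboring 5 put back. Signs turned only in genes that did not pass: CD48 (0.13 on all 10 arrays and with the block on them, 0.083 with weights, 0.049 with control 3 and 0.026 with neighboring 5 put back, 0.11 with the hybridization covariate, −0.19 to 0.095 leaving out 1 array), CTLA4 (0.10 with cyclic loess, 0.025 with neighboring 5, 0.12 with the block, −0.18 to 0.15 leaving out 1 array), CD69 (0.018 on all 10 arrays and with the block on them), FYN (−0.036) and KLRB1 (0.21) with the hybridization covariate, KLRD1 (0.023 with cyclic loess, −0.18 to 0.0048 leaving out 1 array) and NKG7 (0.11 with its other probe set). The causes were not tested. RMA compresses differences at low signal, where 14 of the 36 genes lie.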
